A study of Mus musculus with 6 samples.

Results

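The genes described here are 6 genes of cholinergic neurons, Chat, Slc18a3, Slc5a7, Slc10a4, Ache and Prph, measured in mouse rhombomere 4 tissue at E10.5. They were taken by name, through every probe set whose single gene symbol in the platform annotation is one of them. This gave 7 of the 22626 probe sets tested, for 4 of the 6 genes: 1 each for Slc18a3, Slc5a7 and Ache, and 4 for Prph. No probe set carried the single symbol Chat or Slc10a4, so neither was measured here. Total RNA from pools of dissected rhombomere 4 segments was hybridised to Affymetrix mouse 430A arrays, 3 from Hoxb1 mutant embryos and 3 from wild-type embryos. The submitters state that each pool was an independent biological replicate, and the labels add that the tissue, mainly rhombomere 4, also held the branchial arches around it. The labels used here state neither the mutant allele and its zygosity nor the strain of either group. In such pooled tissue, fewer cells of a type and less RNA per cell cannot be told apart.

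Rhombomere 4 is the hindbrain segment from which facial branchiomotor neurons arise, and Hoxb1 is the homeobox gene that gives the segment its identity. Motor neurons release acetylcholine. Chat makes it from choline and acetyl-CoA, Slc18a3 (the vesicular acetylcholine transporter, VAChT) loads it into synaptic vesicles, Ache breaks it down in the synaptic cleft, and Slc5a7 (the high-affinity choline transporter, CHT1) takes the choline back up. Slc10a4 is an orphan carrier of synaptic vesicles in cholinergic and monoaminergic neurons. Prph encodes peripherin, an intermediate filament of motor and peripheral neurons, and is a marker of these cells rather than a gene of the transmitter itself. Ache is also made outside neurons, among others in red blood cells and muscle.

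Chat and Slc18a3 form a single locus. In RefSeq (build GRCm38.p6) Chat spans chr14:32408203-32465909 and Slc18a3 spans chr14:32462437-32464850, within Chat and on the same minus strand, with the starts 1059 bases apart. The 2 RefSeq promoter windows are shown because only one gene of this shared locus was measured, and each runs from 250 bases before to 50 bases after the start. Capitals mark matches to CANNTG, the E-box letters bound by basic helix-loop-helix factors, which were searched on both strands and overlapped no other motif searched.
Slc18a3 promoter, chr14:32464801-32465100, minus strand: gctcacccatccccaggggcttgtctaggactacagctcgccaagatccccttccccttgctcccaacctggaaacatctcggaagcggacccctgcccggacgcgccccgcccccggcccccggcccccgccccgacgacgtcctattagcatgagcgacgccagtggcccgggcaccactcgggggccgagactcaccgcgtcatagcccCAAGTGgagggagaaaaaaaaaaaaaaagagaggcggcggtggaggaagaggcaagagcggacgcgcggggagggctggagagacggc
Chat promoter, chr14:32465860-32466159, minus strand: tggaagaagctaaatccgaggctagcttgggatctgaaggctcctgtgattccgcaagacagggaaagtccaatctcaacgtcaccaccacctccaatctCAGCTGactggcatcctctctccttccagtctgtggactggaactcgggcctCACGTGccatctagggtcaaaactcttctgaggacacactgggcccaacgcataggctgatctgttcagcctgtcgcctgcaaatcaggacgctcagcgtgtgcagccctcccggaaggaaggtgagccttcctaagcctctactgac
The Slc18a3 window held 1 such match and the Chat window 2, and CANNTG occurs in 72.3% of all 32851 promoter windows of this length. All 6 genes had a window in the table. None of the 6 held TGATNNAT, the letters of a Hox and Pbx site, which 8.85% of all windows hold, or TAATTA, a homeodomain core, which 5.29% hold. The letters TATAAA, present in 13.6% of all windows, occurred once each in the Prph and Slc5a7 windows and in none of the others. A match in these letters is a description of the sequence only.

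The arrays differed modestly in median intensity and strongly in 1 control. Over all probe sets tested, the median intensity was 187 to 214 on the mutant arrays and 204 to 208 on the wild-type arrays. Mutant replicates 2 and 3 had the lowest medians, 191 and 187. The control probe sets for 18S ribosomal RNA had mean log2 signals of 6.36 to 7.03 on the mutant arrays, against 6.44, 12.1 and 11.3 on wild-type replicates 1, 2 and 3, so wild-type replicates 2 and 3 stand apart. Hoxb1, the targeted gene, gave intensities of 35.3 to 60.8 in mutants, against 341, 378 and 588 in wild type. The labels do not say whether its only probe set lies in the part that was altered. Precision is limited by the number of arrays, with a standard error of 0.16 for the median probe set (log2 difference).

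A pair of levels of background were used to read the signal of the cholinergic genes. The 27 control probe sets for Bacillus transcripts, for which the mouse has no target, had a median of 12.7 over the 6 arrays. Their 95th percentile was 61.5 and their highest value 122. Of all probe sets tested, 68.2% exceeded 61.5 on all 6 arrays and 55.2% exceeded 122 on all 6. The second level came from 18 mouse genes known for single adult tissues, such as Prl of the pituitary, Aqp2 of the kidney and Pga5 of the stomach, of 20 listed. Their median was 91.9, their 95th percentile 198 and their highest value 261. Whether rhombomere 4 tissue transcribes any of these genes was not tested. Probe sets differ in how well they bind their target, so an intensity set against either level describes the signal and not the amount of transcript.

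Of the 7 probe sets, 3 exceeded the bacterial 95th percentile on all 6 arrays, that of Slc18a3 and 2 of the 4 for Prph. None exceeded the highest bacterial value on all 6 arrays, and none exceeded the 95th percentile of the adult tissue genes on more than 1 array. The other 4 probe sets, for Slc5a7, Ache and the other two of Prph, lay above the bacterial 95th percentile on 1 to 5 arrays. Mean intensities of the 7 ran from 36.1 to 148, those of the adult tissue genes from 4.16 to 198 and those of the bacterial controls from 2.18 to 79.0.

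**Figure D1:**
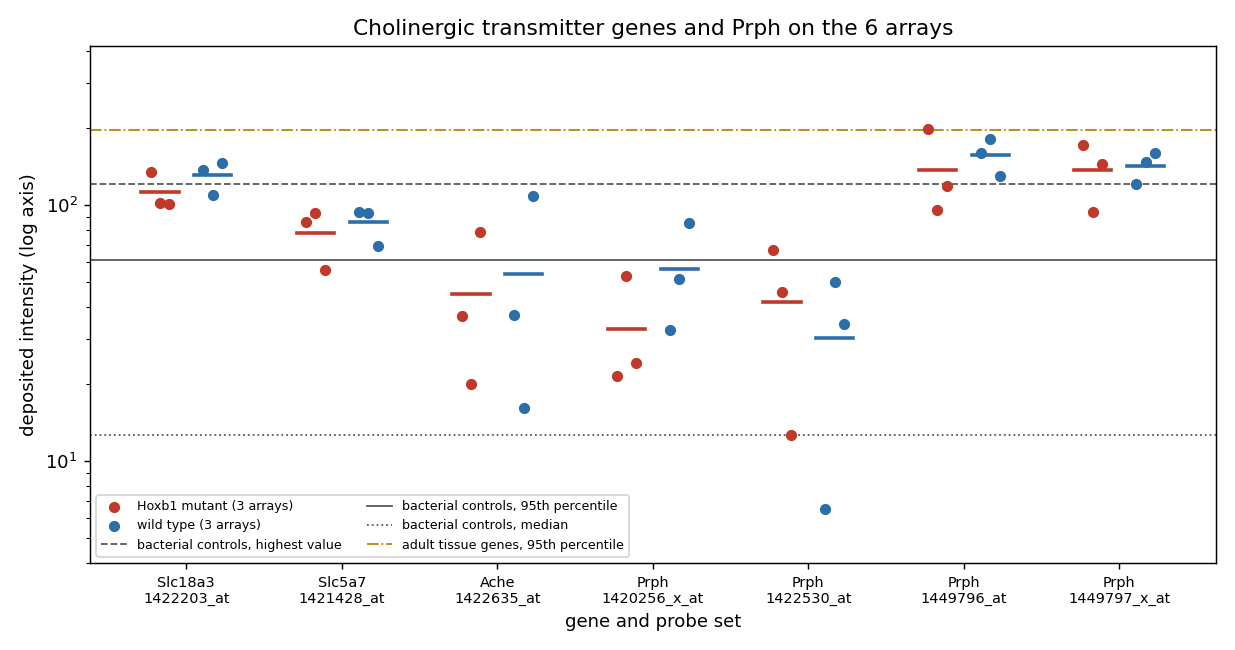
Deposited intensity (log axis) of the 7 probe sets for Slc18a3, Slc5a7, Ache and Prph on each of the 3 Hoxb1 mutant arrays (red, left) and 3 wild-type arrays (blue, right), with short bars at the group means and lines at the background levels. Slc18a3 and the Prph probe sets 1449796_at and 1449797_x_at lie above the bacterial 95th percentile of 61.5 on every array, the groups overlap in all 7 probe sets, and 1 value, of 1449796_at in a mutant, lies above the adult tissue level of 198.

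**Figure D2:**
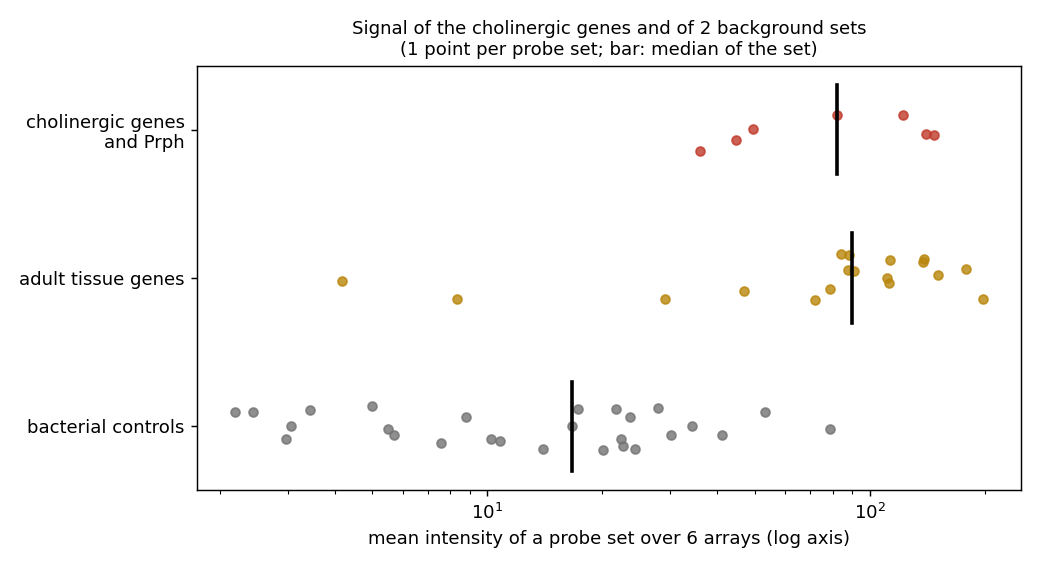
Mean intensity over the 6 arrays (log axis) of the 7 probe sets for the cholinergic genes and Prph, of 18 adult tissue genes and of 27 bacterial controls, 1 point per probe set, with a bar at the median of each set. The 7 probe sets lie between 36.1 and 148, above the bacterial median of 16.7 and within the adult tissue range of 4.16 to 198.

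None of the 7 probe sets passed the test between mutants and wild type. In limma, with p-values adjusted over all probe sets, 0 of the 7 passed 0.05, as did 0 of all 22626 (0%), and at an unadjusted p under 0.05 the counts were 0 of 7 and 1303 of 22626 (5.76%). Hoxb1 itself, with a log2 difference of -2.78 (SE 0.24), did not pass 0.05 (limma adjusted p = 0.069). A probe set that did not pass is therefore not shown to be unchanged. The groups overlapped in all 7 probe sets, while they did not overlap in 12% of all probe sets. The fitted difference was below 0 in 6 of the 7 and above 0 in 1, with a median of -0.13, against 54.2% below 0 and a median of -0.02 over all probe sets. Centring the arrays on their medians kept these signs and raised all 7 differences. Slc18a3 moved from -0.20 to -0.15, Slc5a7 from -0.13 to -0.07 and the Prph probe set 1422530_at from 0.32 to 0.38. All differences subtract wild type from mutant after taking log2(intensity + 16), a scale that understates the change of dim probe sets.

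Slc18a3, the vesicular transporter, had intensities of 135, 102 and 102 in mutants, against 138, 110 and 147 in wild type. The lowest wild-type value lay between the mutant values, so the groups overlapped. The means were 113 ± 18.8 in mutants and 132 ± 19.1 in wild type (SD, n = 3 each). The log2 difference was -0.20 (SE 0.16, limma adjusted p = 0.867), with a 95% interval of -0.58 to 0.18. On this scale the interval covers mutant levels from 0.669 to 1.13 times wild type. All 6 arrays exceeded the bacterial 95th percentile, and 3 exceeded the highest bacterial value, 1 mutant and 2 wild type. Across the arrays, between 35.0% and 42.6% of all probe sets had a signal at or below that of Slc18a3. Of the 18 adult tissue genes, 5 had a mean signal at or above its mean of 122.

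Slc5a7, the choline transporter, gave 85.8, 93.0 and 55.7 in mutants, against 94.4, 93.8 and 69.4 in wild type. Replicate 3 was the lowest array in each group, and the one in the mutants was the one below the bacterial 95th percentile over all arrays. On that array the bacterial controls were themselves lower, with a 95th percentile of 49.95, and against the level of each array alone Slc5a7 lay above on all 6. The means were 78.2 ± 19.8 in mutants and 85.9 ± 14.3 in wild type (SD, n = 3 each). The log2 difference was -0.13 (SE 0.20, limma adjusted p = 0.935), with a 95% interval of -0.60 to 0.35. Of the 18 adult tissue genes, 12 had a mean at or above that of Slc5a7.

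Ache, the degrading enzyme, varied more among arrays of a group than between the groups. It gave 37.1, 20.0 and 78.7 in mutants, against 37.5, 16.2 and 109 in wild type. Replicate 3 was the highest and replicate 2 the lowest in each group, and replicate 3 alone exceeded the bacterial 95th percentile in both. The means were 45.3 ± 30.2 in mutants and 54.1 ± 48.4 in wild type (SD, n = 3 each). The log2 difference was -0.08 (SE 0.55, limma adjusted p = 0.990), with a 95% interval of -1.39 to 1.23. With 4 of the 6 values below the bacterial 95th percentile, no fold is read from it. Markers of primitive erythroid cells, which also make Ache, had a summed intensity over 9 of 10 genes of 37666, 39080 and 41846 in mutants, against 39603, 37080 and 34286 in wild type. The globin genes Hba-x, Hbb-y and Hbb-bh1 made up most of this sum. The part of erythroid cells in the Ache signal was not tested.

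The 4 probe sets of Prph read different levels. Of these, 1 is annotated with a RefSeq transcript of Prph, 1422530_at, and the other 3 have no accession in the annotation used. The probe set 1422530_at gave 67.0, 45.7 and 12.7 in mutants, against 6.52, 50.3 and 34.3 in wild type. It exceeded the bacterial 95th percentile on 1 mutant array and on no wild-type array. The fitted log2 difference was 0.32 (SE 0.51, limma adjusted p = 0.936), and since both groups lay largely within the bacterial range it is no measure of fold.

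The brightest Prph probe set, 1449796_at, gave 199, 95.8 and 119 in mutants, against 160, 181 and 131 in wild type. The highest and the 2 lowest of the 6 values were all mutant arrays. The means were 138 ± 54.2 in mutants and 157 ± 25.3 in wild type (SD, n = 3 each), and the log2 difference was -0.22 (SE 0.26, limma adjusted p = 0.905, 95% interval -0.83 to 0.40). The probe set 1449797_x_at, whose suffix marks probes that may bind other transcripts, gave 172, 94.4 and 146 in mutants, against 121, 147 and 160 in wild type. Its log2 difference was -0.08 (SE 0.22, limma adjusted p = 0.967). Mutant replicate 1 was the highest and mutant replicate 2 the lowest array in both of these probe sets.

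The last Prph probe set, 1420256_x_at, gave 21.6, 52.9 and 24.3 in mutants, against 32.5, 51.6 and 85.8 in wild type. It exceeded the bacterial 95th percentile on 1 wild-type array and on no mutant array, and the fitted log2 difference was -0.56 (SE 0.34, limma adjusted p = 0.844). Over the 6 arrays, the log2 values of 1449796_at and 1449797_x_at correlated at 0.67 (Pearson r), and the other 5 pairs of Prph probe sets at -0.35 to 0.24. These are descriptions over 6 arrays. The mean of the 4 probe sets gave a log2 difference for Prph of -0.13 (SE 0.22, limma adjusted p = 0.927).

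**Figure D3:**
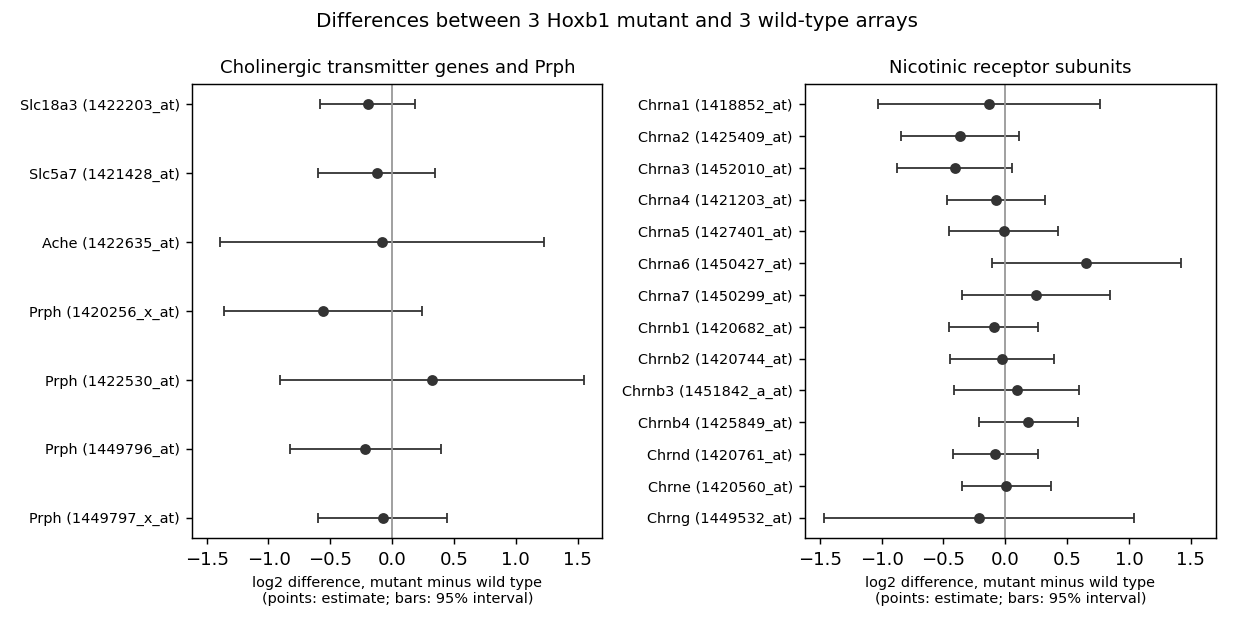
Log2 difference, mutant minus wild type, with 95% intervals from limma, for the 7 probe sets of the cholinergic genes and Prph (left) and for 14 nicotinic receptor subunits (right, brightest probe set of each gene). Every interval includes 0, and the intervals are widest for Ache and the Prph probe set 1422530_at on the left and for Chrng on the right.

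The same differences were computed without wild-type replicates 2 and 3, whose 18S signal was high. With wild-type replicate 1 alone against the 3 mutant arrays, the log2 difference was -0.27 for Slc18a3 and -0.25 for Slc5a7. It was 0.08 for Ache, a change of sign. For Prph it was -0.25 with 1449796_at, 0.13 with 1449797_x_at, -0.04 with 1420256_x_at and 1.23 with 1422530_at, where wild-type replicate 1 gave the lowest of the 6 values. The lone wild-type array is assumed to vary like the mutants in these fits, and none passed the threshold. Leaving out any 1 array turned the sign for Slc5a7 (without mutant replicate 3, 0.06), Ache (without mutant replicate 2, 0.24, and without wild-type replicate 3, 0.45), 1422530_at (without mutant replicate 1, -0.0048, and without wild-type replicate 1, -0.13) and 1449797_x_at (without mutant replicate 2, 0.14, and without wild-type replicate 3, 0.0014). The sign was negative in all 6 such fits for Slc18a3, at -0.32 to -0.12, for 1449796_at, at -0.49 to -0.013, and for 1420256_x_at, at -0.83 to -0.28.

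**Figure D4:**
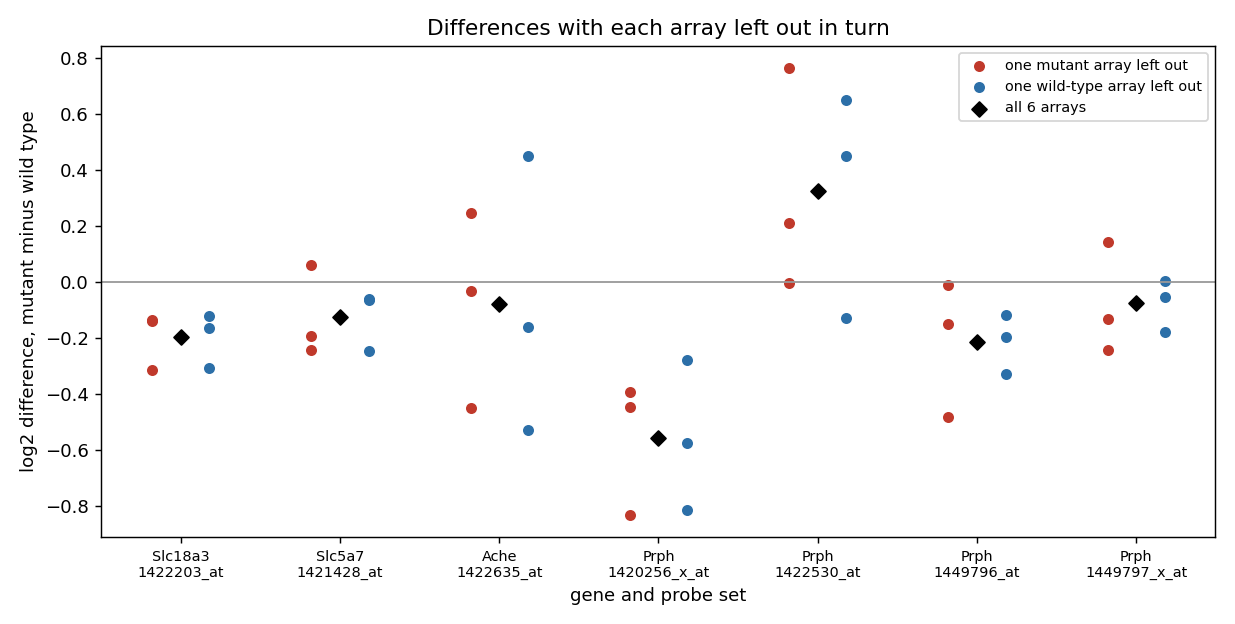
Log2 difference, mutant minus wild type, of the 7 probe sets with all 6 arrays (black diamonds) and with each mutant array (red, left) or each wild-type array (blue, right) left out in turn. The values for Slc18a3 stay between -0.32 and -0.12, while those of Ache run from -0.53 to 0.45.

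Genes around acetylcholine were read from the same fit, with the brightest probe set standing for each gene. Among 77 genes of 9 lists, 0 passed the adjusted threshold in limma, and 5 had an unadjusted p under 0.05, all lower in mutants, where 3.75% of all 12393 genes were lower at that level and 1.7% higher. The 5 were Nkx2-2, Phox2a, Lhx3 and Tbx2, from the list of motor neuron factors, and the vesicle gene Vamp2. The groups did not overlap in 9 of the 77 genes, and in 12.3% of all genes, so the 77 lay near that share. The median log2 difference of the 77 was -0.09, against -0.02 over all genes.

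None of the other genes of choline and acetylcholine handling passed. Of 14 listed genes 11 were measured, 9 of them above the bacterial 95th percentile on all arrays. That level was also exceeded on all arrays by 8 of the 18 adult tissue genes. The median log2 difference of the 11 was -0.04, with 7 below 0 and 4 above. Acly, which supplies the acetyl-CoA, gave 3538, 3426 and 3461 in mutants, against 4164, 3714 and 4163 in wild type. The groups did not overlap, and the log2 difference was -0.21 (SE 0.11, limma adjusted p = 0.833). The dimmer probe sets of the gene all overlapped between the groups. Their log2 differences were -0.11 (SE 0.14) for 1439459_x_at, the next brightest, and -0.38 (SE 0.16) for 1425326_at. Those of 1439445_x_at and 1438389_x_at were -0.18 (SE 0.17) and 0.19 (SE 0.25), with both below the bacterial 95th percentile on every array. Chkb, a choline kinase of phospholipid synthesis, had a log2 difference of -0.24 (SE 0.16), and Slc44a2, a choline transporter-like protein, one of 0.06 (SE 0.17). The dimmer Slc44a2 probe sets 1428065_at and 1438860_a_at had -0.25 (SE 0.25) and -0.24 (SE 0.15), both with overlap. Bche, the second cholinesterase, gave 76.9, 60.9 and 69.2 in mutants, against 69.5, 63.4 and 81.3 in wild type, close to the bacterial 95th percentile on every array.

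Nicotinic receptor subunits, which form the channels that acetylcholine opens, did not pass either. Of 16 listed genes 14 were measured, 9 had a difference below 0 and 5 above, and the median was -0.05. Chrna3, Chrna4, Chrnb2 and Chrnb3, 4 of the 14, exceeded the bacterial 95th percentile on all 6 arrays, against 68.2% of all probe sets tested. Chrna2, Chrnd and Chrne exceeded it on none, and the other subunits on 1 to 5 arrays.

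Chrna3, found in ganglionic receptors, gave 320, 202 and 197 in mutants, against 306, 311 and 331 in wild type. The highest mutant array lay within the wild-type values and the other two below them all, and the log2 difference was -0.41 (SE 0.19, limma adjusted p = 0.833). Its other probe set, 1455931_at, gave 271, 225 and 243 in mutants, against 257, 194 and 305 in wild type, a log2 difference of -0.01 (SE 0.18). The 95% intervals of the brighter and the dimmer probe set, -0.87 to 0.05 and -0.44 to 0.41, overlap. Whether the probe sets of this gene differ was not tested.

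Chrna4 also had unlike estimates from its probe sets, and their difference was not tested. Its brighter probe set had a log2 difference of -0.08 (SE 0.17), while 1421202_at gave 144, 115 and 106 in mutants, against 149, 207 and 155 in wild type, without overlap and with a log2 difference of -0.44 (SE 0.17). Chrna6 gave 145, 53.4 and 119 in mutants, against 50.6, 50.5 and 71.2 in wild type, a log2 difference of 0.66 (SE 0.32, limma adjusted p = 0.833), and -0.19 (SE 0.35) with its dimmer probe set. The brighter probe set exceeded the bacterial 95th percentile on 2 mutant arrays and 1 wild-type array, and the dimmer one on 1 array. No fold is therefore read from Chrna6.

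The muscarinic receptors Chrm1, Chrm3 and Chrm4, the 3 measured of 5, stayed under 61.5, the bacterial 95th percentile, on every array. Their intensities lay between 9.14 and 28.0 in mutants and between 14.8 and 26.1 in wild type. The median fitted difference was -0.08, from which no fold can be read.

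Among 9 genes of receptor assembly and clustering 7 were measured, with a median of 0.04. Agrn, the secreted organiser of the neuromuscular junction, gave 655, 600.1 and 593 in mutants, against 694, 599.9 and 887 in wild type. Its log2 difference was -0.22 (SE 0.16), and Nptn, a synaptic adhesion protein, had one of 0.04 (SE 0.12). Musk, the kinase that receives the agrin signal in muscle, gave 15.6 to 18.9 in mutants, against 16.7, 55.5 and 50.2 in wild type. The high values came from wild-type replicates 2 and 3, the ones of high 18S signal. All 6 lay below the bacterial 95th percentile, and no fold is given.

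Other filament genes, most of them far above the bacterial controls, did not pass the test. All 8 listed filament genes were measured, 7 had a difference below 0, and the median was -0.19. Nefl, the light neurofilament, gave 3561, 3131 and 2897 in mutants, against 3709, 3402 and 3626 in wild type, a log2 difference of -0.17 (SE 0.12). Ina, internexin, had one of -0.29 (SE 0.19, limma adjusted p = 0.854). The dimmer Ina probe sets 1418178_at and 1448992_at had -0.04 (SE 0.25) and -0.35 (SE 0.21), both with overlap. The progenitor filaments Nes and Vim had -0.17 (SE 0.12) and -0.07 (SE 0.10), both with groups that did not overlap. Their other probe sets did overlap, with log2 differences of -0.06 and -0.26 for Nes and 0.08 and -0.07 for Vim.

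Of 14 vesicle genes 11 were measured, 8 with a difference below 0 and a median of -0.13. Vamp2, a vesicle SNARE protein, gave 235, 178 and 144 in mutants, against 256, 316 and 319 in wild type. The groups did not overlap, and the log2 difference was -0.66 (SE 0.19, limma adjusted p = 0.822). Its other probe set, 1420833_at, gave 95.5, 82.3 and 72.7 in mutants, against 84.8, 113 and 78.5 in wild type, with overlap and a log2 difference of -0.11 (SE 0.16). Syt4, a synaptotagmin, gave 109, 94.6 and 88.8 in mutants, against 112, 120.0 and 146 in wild type, a log2 difference of -0.32 (SE 0.14). Its dimmer probe set, 1415844_at, had -0.16 (SE 0.18), with overlap. The brightest of the list, Syt11 and Stx1a, had -0.13 (SE 0.17) and -0.10 (SE 0.12), both with overlap. Their dimmer probe sets 1455176_a_at (Syt11) and 1448366_at (Stx1a) had -0.27 (SE 0.13) and -0.31 (SE 0.16), without overlap. Another of Syt11, 1449264_at, had -0.23 (SE 0.22), with overlap.

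Carriers for other transmitters were measured for 3 of 6 genes. Slc17a6, a vesicular glutamate transporter, gave 193, 124 and 63.8 in mutants, against 123, 147 and 189 in wild type, with overlap and a log2 difference of -0.33 (SE 0.35). Its dimmer probe set, 1428379_at, had -0.12 (SE 0.21), with overlap. Slc18a1, the vesicular monoamine transporter related to Slc18a3, gave 134, 114 and 95.3 in mutants, against 95.6, 145 and 113 in wild type, a log2 difference of -0.03 (SE 0.18). Slc32a1, the carrier of GABA and glycine, was at or under 51.6 throughout, below the bacterial 95th percentile. The repressor Rest, which silences neuronal genes, was measured with 4 partners, and the median of the 5 was -0.06. Hdac1 and Hdac2 had log2 differences of 0.03 (SE 0.10) and -0.19 (SE 0.15), and Sin3a one of -0.08 (SE 0.11).

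Genes listed as motor neuron factors were mostly lower in mutants in their fitted values, without passing the test. Of 16 listed 15 were measured, 14 with a difference below 0, against 54.5% of all genes. The median was -0.20, against -0.02 over all genes. The summed intensity of the 15 was 4781 to 5311 in mutants and 5661 to 6576 in wild type. Isl1 and Lmo4, with means of 1600 and 1150 over the 6 arrays, weigh most in this sum, and the groups overlapped in each. For scale, the groups did not overlap in 12.3% of all genes taken singly, and no such share was computed for sums. Isl1, a LIM homeobox factor of motor and sensory neurons and the brightest, gave 1483, 1459 and 1583 in mutants, against 1740, 1552 and 1785 in wild type. Lmo4, a LIM-only protein, had a log2 difference of -0.12 (SE 0.17). Nkx2-2 and Phox2a, of visceral motor neuron progenitors and of branchiomotor neurons, had -0.82 (SE 0.14) and -0.89 (SE 0.26), with limma adjusted p of 0.481 and 0.817. Nkx2-2 gave 106, 107 and 86.2 in mutants, against 173, 179 and 213 in wild type. Phox2a gave 60.4, 75.3 and 108 in mutants, against 168, 115 and 213 in wild type. All mutant values of both lay below the highest bacterial value of 122, and Phox2a exceeded the bacterial 95th percentile on 2 mutant arrays only. The defining markers Mnx1 and Olig2 did not exceed the bacterial 95th percentile on any array. The part of motor neuron content in the values of the cholinergic genes was not tested.

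Markers of other cells were read from 65 measured genes in 11 lists. Of these, 53 exceeded the bacterial 95th percentile on all 6 arrays, and 2, the muscle factors Myf5 and Myf6, on none. None of the 65 passed the adjusted threshold in limma, and 1, Sox10 of the neural crest, had an unadjusted p under 0.05, where 5.45% of all genes did. The summed signal of general neuronal genes overlapped, at 7621 to 10430 in mutants and 9800 to 10748 in wild type, with all 8 above the bacterial 95th percentile. Sums were lower in all mutant arrays for mesenchyme (10074 to 10483, against 11083 to 11584), endothelium (1122 to 1309, against 1331 to 1389) and neural crest (1170 to 1227, against 1237 to 1457). These are 3 of the 11 lists. Taken singly, 12.3% of all genes had groups that did not overlap, and no such share was computed for sums. The sums of the other 7 lists overlapped between the groups. Among them were skeletal muscle precursors, which also express Ache and muscle receptor subunits, at 913 to 1084 in mutants and 876 to 1182 in wild type. Cranial sensory ganglia, whose neurons also hold peripherin, had sums of 1160 to 1317.8 in mutants and 1317.6 to 1353 in wild type. The part of these cells in the values above was not tested.

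The genes most like Slc18a3 over the 6 arrays were Asph, Ccdc191 and Tm2d2, with Pearson r of 0.992, 0.990 and 0.986 on the log2 scale. Those most like Prph (1449796_at) were Ssr2, Fech and Pknox2, with r of 0.998, 0.996 and 0.991. They were the highest among 14232 named probe sets above the bacterial 95th percentile on all arrays, of which 195 and 276 exceeded 0.9. As the highest of so many correlations over 6 arrays, they are given as a description only.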

How the data were processed

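Total RNA of rhombomere 4 pools was hybridised to 1 array per pool. The authors' deposited table gives an intensity on a linear scale for each probe set. The submitters' processing notes name affy, with no version. The sources used here do not state the algorithm, any background correction or detection calls. The mean of the 22690 values, with 2% trimmed at each end, was 500.0 on each array, and no further normalization was applied. Left out were 64 control probe sets. Of the other 22626, 20380 name 1 gene, 691 several and 1555 none in the annotation used. Symbols were updated through Entrez identifiers in a RefSeq table (GRCm38.p6) for 20351.

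Values of log2(intensity + 16) entered limma 3.58.1 (R 4.3.3; lmFit, then eBayes, 2-sided) with all 6 arrays and group as the one factor. P-values were adjusted by Benjamini and Hochberg's method over all probe sets, at a threshold of 0.05. This limma step was tested on simulated data with known changes. The genes and lists were chosen with earlier results of these data known. Named genes were Hoxb1, all probe sets of the 6 genes, per list up to 2 genes of smallest p and 2 of highest mean, and per measured gene above background the 3 most correlated. Genes outside this rule (Bche, Chrna2, Chrnb2, Chrnb3, Chrnd, Chrne, Chrng, Lhx3, Tbx2, Mnx1, Olig2, Rest), as well as the dimmer probe sets given, were picked with their values already known. For the marker lists only sums, counts and genes past p 0.05 are given. Alternatives were quantile normalization, median centring, a filter on dim probe sets, array weights, eBayes with trend and robust settings, the replicate block, pseudocounts of 1 and 64, an 18S covariate, leaving out arrays, and other background levels. Same-numbered arrays had deviations that correlated at 0.05, -0.02 and 0.04, so the numbers were not taken as pairs.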

Additional observations from a re-analysis of the deposited data

How the results depend on the processing

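No probe set of the 6 genes passed the adjusted threshold in limma under any of the 16 alternatives. Of 109 alternative log2 differences 99 kept their sign and 10 did not, with adjusted p of 0.561 to 1.00. An unadjusted p under 0.05 in limma came from 3 of the 109, each with 1 array left out and a difference below 0. These were 1420256_x_at without mutant replicate 2 (0.040) and without wild-type replicate 1 (0.048), and 1449796_at without mutant replicate 1 (0.037). With arrays left out in turn, the differences ran from -0.25 to 0.059 for Slc5a7, -0.53 to 0.45 for Ache, -0.13 to 0.76 for Prph 1422530_at and -0.24 to 0.14 for 1449797_x_at. Against wild-type replicate 1 alone, Ache gave 0.081 and 1449797_x_at 0.13, and with the 18S covariate 1449797_x_at gave 0.14. The cause was not tested. Slc18a3, 1449796_at and 1420256_x_at kept their sign in all settings that tested them, and with arrays left out ran from -0.32 to -0.12, -0.49 to -0.013 and -0.83 to -0.28. The filter on dim probe sets left out Slc5a7, Ache, 1422530_at and 1420256_x_at. Over all probe sets the count passing was 0 in the main fit. It was 3 with quantile normalization, 4 with median centring, 2 with the dim filter, 3 with trend and robust settings and 4 with array weights. Hoxb1 was among those passing in each of these alternatives except quantile normalization. At an unadjusted p under 0.05 the count was 1303. Of the 77 genes of the other lists 5 passed that unadjusted level, a count added after seeing the data. With the replicate block 0 probe sets passed and 1361 had an unadjusted p under 0.05, the SE for Ache was 0.158, against 0.549 without it, and mutant replicate 2 correlated best with wild-type replicate 3. The number of probe sets above background on all arrays was 3, and 4 against the bacterial 95th percentile of each array alone, 0 against the highest bacterial value and 0 against the adult tissue genes.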
